A study of Mus musculus with 4 samples.

Results

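The 76 genes for proteins of the cytosolic ribosome were examined in RNA-seq of 4 sarcomas from W/+ mice, 2 from mice given arsenic trioxide (ATO 1 and ATO 2) and 2 from control mice (PBS 1 and PBS 2). They were taken from the 56691 genes of the deposited table by symbol, as Rpl or Rps followed by a number and at most one of the letters a, x and y, together with Rplp0, Rplp1, Rplp2 and Rpsa, and without pseudogenes. Of these genes 46 encode proteins of the large subunit and 30 of the small subunit. All 4 mice were heterozygous for a p53 mutation made with CRISPR on a C57BL/6N background, written p53R282W/+ in the labels, the human residue, and p53-R279W/+ in the study. The ATO mice received 35 mg ATO per L drinking water from day 90 until death. For the control mice the treatment label is PBS, and the study calls them untreated. The ages at which the tumors were taken and the type of each sarcoma are not given in the sources used here, while the sarcomas of this strain included angiosarcomas, soft tissue sarcomas and osteosarcomas. For all 4 samples the labels describe culture with adipocyte-inducing hormones, whereas the study describes tumor tissue, and the labels name another extraction reagent and library kit than the study does. Both groups share the heterozygous germline genotype, whether the sarcomas kept the wild-type allele is not given in the sources used here, and no wild-type mice were among the samples.

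Each ribosome holds one copy of nearly all of its proteins, and a few, such as the stalk proteins, are present in several copies. Ribosomal protein mRNAs are among the most abundant in growing cells and usually begin with a terminal oligopyrimidine (TOP) tract, a cytosine followed by a run of pyrimidines at the cap, through which mTORC1 and Larp1 control their translation and stability. Several ribosomal proteins also act on p53: when the assembly of ribosomes fails, Rpl5 and Rpl11 bind Mdm2, the ubiquitin ligase of p53, together with the 5S rRNA. ATO binds and refolds some structural p53 mutants. The comparison of ATO with PBS sarcomas asked here how the mRNAs of the ribosome stood in tumors with and without the compound.

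The sequences around the start sites show where the TOP tract would lie in the genes at both ends of the order of change described further on. RefSeq (GRCm38.p6) start windows were at hand for 56 of the 76 genes, in 66 entries. Each line gives 30 bases, 10 before and 20 from the annotated start, 5′ to 3′ on the strand of the gene, with capitals for each C followed by at least 4 bases that are C or T. The first 5 genes had the lowest and the last 4 the highest fitted fold change, and Rps29, also among the highest 5, had no entry.
Rpl5: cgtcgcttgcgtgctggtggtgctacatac
Rplp0: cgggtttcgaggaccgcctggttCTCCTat
Rpsa: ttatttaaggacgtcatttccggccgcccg
Rpl12: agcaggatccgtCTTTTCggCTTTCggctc
Rpl6: aCCTCCCgtcattgcttatagaccggaagc
Rpl36a: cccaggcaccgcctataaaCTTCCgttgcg
Rps27: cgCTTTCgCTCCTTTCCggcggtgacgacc
Rpl37a: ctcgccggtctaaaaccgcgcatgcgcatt
Rplp2: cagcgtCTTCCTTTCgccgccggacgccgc
The windows lay at chr5:107900518-107900547 (plus strand) for Rpl5, chr5:115559457-115559486 (plus strand) for Rplp0, chr9:120127756-120127785 (plus strand) for Rpsa, chr2:32961702-32961731 (plus strand) for Rpl12, chr5:121204491-121204520 (plus strand) for Rpl6, chrX:134585644-134585673 (plus strand) for Rpl36a, chr3:90213629-90213658 (minus strand) for Rps27, chr1:72711250-72711279 (plus strand) for Rpl37a and chr7:141447641-141447670 (plus strand) for Rplp2. Within the 30 bases shown, a tract was present in 3 of the 5 lowest genes and in 3 of the 4 highest. No share of other genes was taken for these 30 bases. The tracts of Rplp0, from base 14, and of Rpl36a, from base 10, do not lie wholly within 10 bases of the start, the span used below. In Rplp2, which stood highest, 9 pyrimidines began 4 bases before the annotated start, and in Rpl12, among the lowest, 6 began at base 3. The annotated start need not be the base where transcription begins in these tumors, so a tract a few bases away is not placed at the cap by these letters.

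Over all members with an entry, a tract lay within 10 bases of the start in 32 of 66 windows, against 25.4% of the windows of other genes. It lay wholly in the first 6 bases in 16 of 66, against 4.67% of the others. In the 300 bases from 250 before the start to 50 after it, searched on both strands, CCGGAAG, the core that ETS factors such as Gabpa bind, was found in 24 of 66 member windows against 8.80% of other windows. AAGATGGC, the core bound by YY1, was found in 7 of 66 against 2.73%, GGGCGG, the GC box of SP1, in 40 of 66 against 35.6%, CACGTG, the E box of Myc, in 8 of 66 against 7.14%, and TATAAA in 6 of 66 against 13.6%. These matches describe letters and not occupied sites. The 30 genes with a tract within 10 bases of a start had a median log2 change of -0.38, the 26 without one -0.31 and the 20 with no entry -0.29. Lower fitted values were found in 26 of 30, 22 of 26 and 19 of 20 of these genes.

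The libraries held between 15259695 and 18134000 gene counts, and the fewest counts of any ribosomal protein gene in a sarcoma were 640, so counting error was small beside the spread between tumors. ATO 2 stood apart, with 14.7% of its counts in mitochondrial genes against 1.98% to 2.59% in the other sarcomas. The tumors also differed in the markers of other cell types. Skeletal muscle markers summed to 10.96 and 285 CPM (TMM-normalized counts scaled to library size) in PBS 1 and PBS 2 and to 40059 and 2841 CPM in ATO 1 and ATO 2, and each of the 8 markers was higher in both ATO than in both PBS sarcomas. Adipocyte markers summed to 52.1, 268, 832 and 5972 CPM in the same order, again with all 5 higher in both ATO sarcomas, and Lep had no count in either PBS sarcoma. Erythroid markers summed to between 212 and 13916 CPM, endothelial markers to between 470 and 4768 CPM, osteoblast markers to between 28.6 and 1197 CPM, leukocyte markers to between 1106 and 9004 CPM and proliferation markers to between 143 and 899 CPM, and none of these 5 sums separated the groups. Fibroblast and mesenchymal markers summed to between 5465 and 33510 CPM and epithelial markers to at most 51.0 CPM in any sarcoma, with 3 of 6 epithelial markers at 0 in PBS 1. The part of these differences in the values below was not tested.

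The ribosomal protein genes took a smaller share of the counts in both ATO sarcomas than in both PBS sarcomas. The share was 3.26% in PBS 1 (Wilson 95% interval 3.25 to 3.27) and 2.93% in PBS 2 (2.92 to 2.93), and 2.23% in ATO 1 (2.22 to 2.23) and 1.67% in ATO 2 (1.66 to 1.68), where the intervals cover counting error only. The means were 3.09% ± 0.238 in the PBS and 1.95% ± 0.393 in the ATO sarcomas (SD, n = 2 each), a difference of -1.15 percentage points. The groups did not overlap, but an exact two-sided permutation test of 2 against 2 samples cannot give a p below 0.333. In a bulk tumor, fewer cells of a type and less RNA per cell cannot be told apart. With mitochondrial counts left out of the total the shares were 3.33% and 2.99% in PBS 1 and PBS 2 and 2.29% and 1.96% in ATO 1 and ATO 2, so the 2 ATO sarcomas came closer to each other and remained below both PBS sarcomas. The large subunit genes took 2.03%, 1.76%, 1.33% and 0.992% and the small subunit genes 1.24%, 1.17%, 0.893% and 0.678% of all counts in PBS 1, PBS 2, ATO 1 and ATO 2. The ratio of large to small subunit counts was 1.638, 1.499, 1.493 and 1.463 in that order, and PBS 1 was the sarcoma that stood above the rest.

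**Figure D1:**
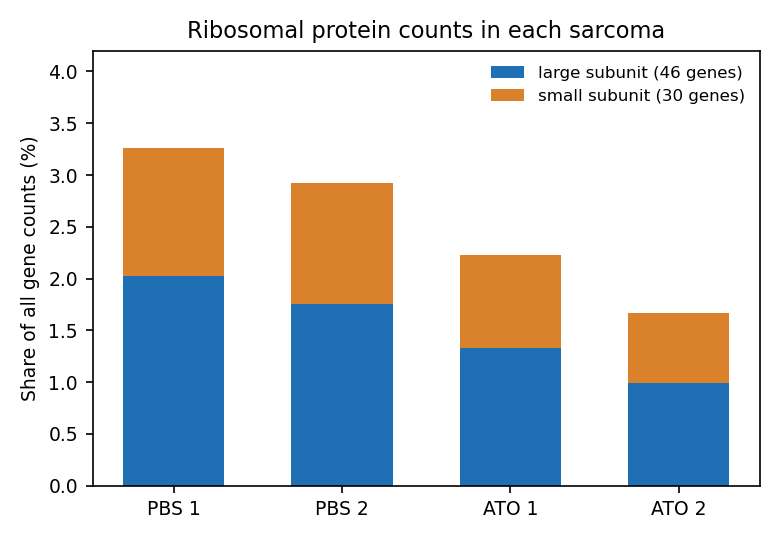
Share of all gene counts (%) held by the 46 large and the 30 small subunit genes, stacked, in each of the 4 sarcomas (1 bar a sample). Both ATO bars, at 2.23% and 1.67%, are lower than both PBS bars, at 3.26% and 2.93%, and both subunits are smaller in them.

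No single ribosomal protein gene passed the test, and the fitted fold changes of most leaned to lower levels in ATO. The comparison was fitted over the 17188 genes with enough counts, among them all 76 members, with edgeR (quasi-likelihood F-test, TMM scaling). edgeR called 0 of 76 members and 0 genes in all (0.0%) at a Benjamini-Hochberg adjusted p under 0.05, and the adjusted p of the members ran from 0.656 to 1.00. At an unadjusted p under 0.05, 0 of 76 members were found, against 8.51% of all genes tested. DESeq2 called 4.13% of the genes it tested and 0 of 76 members, whose smallest adjusted p was 0.536. Over all genes tested, sarcomas given the same treatment varied by 62.5% (common biological coefficient of variation). The test draws the spread of each gene in part from other genes. A member's interval and p-value therefore do not rest on its own spread alone, and the p-values measure only the spread between these 4 tumors. The 95% interval of every member's log2 fold change included 0, and for 71 of 76 it also reached a halving of the level. In those genes the fit could not tell a halving from no change.

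The median log2 fold change of the 76 genes was -0.32, against -0.02 over all genes tested, and 67 of 76 had a negative value. Scaled to library totals alone, the median of all genes moved to -0.28 and that of the members to -0.58, so that the members stood 0.30 below all genes under both scalings. In TMM-normalized CPM, 44 of 76 members were lower in both ATO than in both PBS sarcomas, against 20.2% of all genes tested, and 2 of 76, Rplp2 and Rpl37a, were higher in both, against 19.7%. By FPKM, which carries no correction for the composition of the library, 62 of 76 were lower in both ATO sarcomas, against 29.6% of all genes tested, and 0 higher, against 12.8%. The large subunit genes had a median of -0.39, with 29 of 46 lower in both ATO sarcomas, and the small subunit genes a median of -0.24, with 15 of 30. The difference of -0.15 between the subunit medians was -0.01 without PBS 1 and -0.29 without PBS 2, so it rested on which PBS sarcoma was used.

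**Figure D2:**
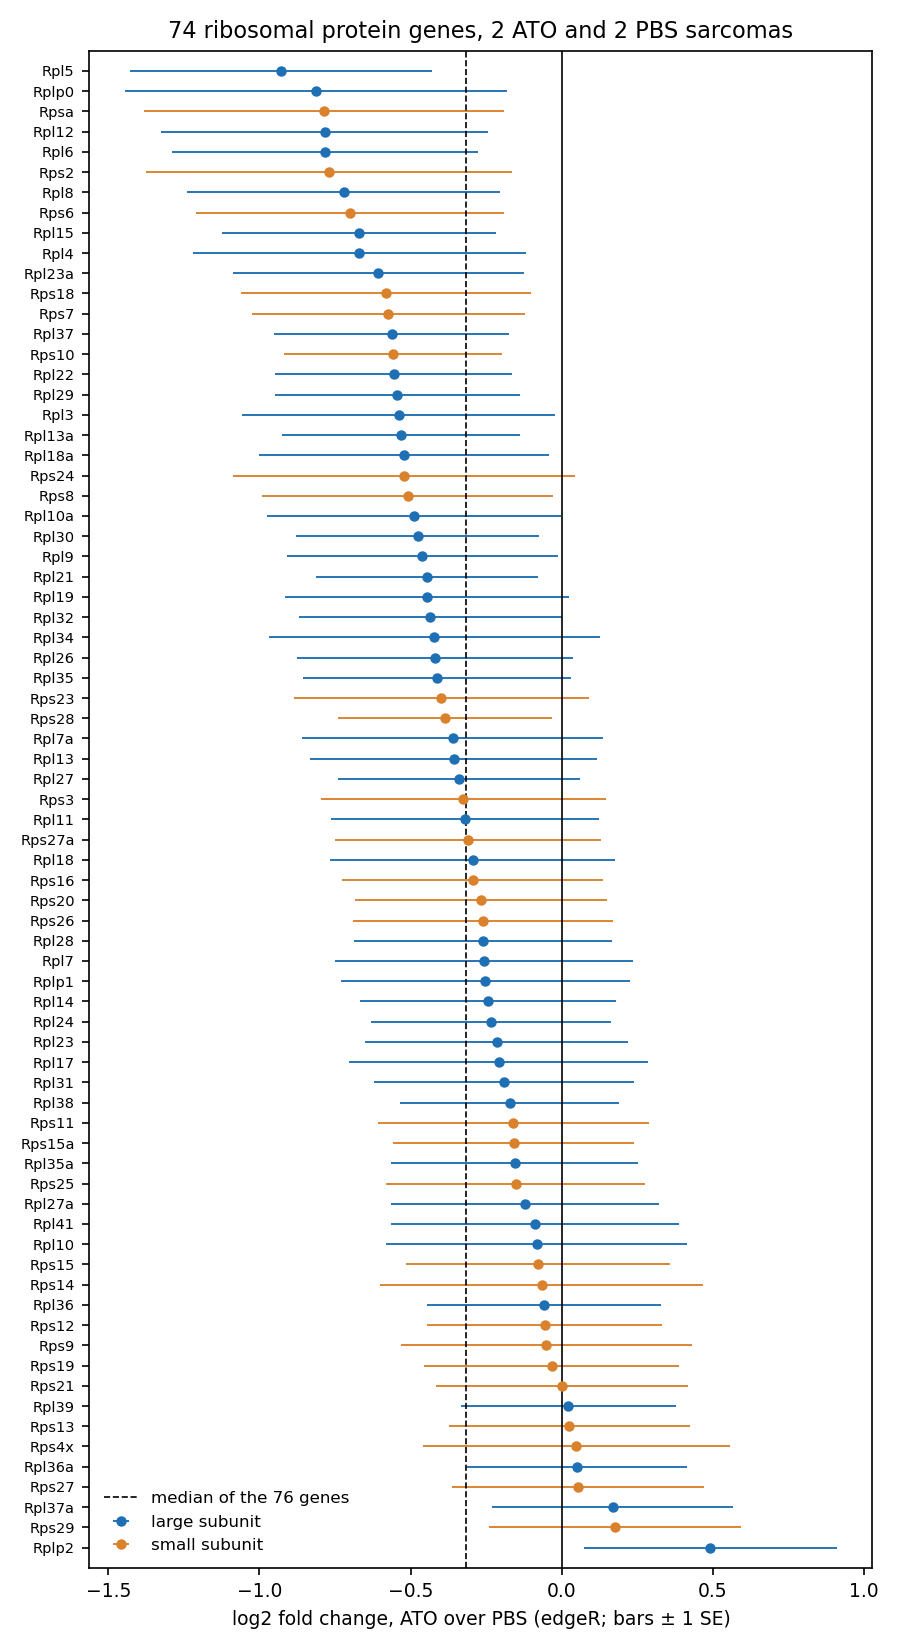
Fitted log2 fold change of ATO over PBS for 74 of the 76 genes (points, bars ± 1 SE from edgeR, 2 sarcomas a group), ordered from lowest to highest and coloured by subunit, with the median of all 76, -0.32, dashed. The values run from -0.93 in Rpl5 to 0.49 in Rplp2, and 65 of 74 lie left of 0.

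Between the sarcomas of one group the members also differed. The median log2 ratio over the members was 0.10 for PBS 1 over PBS 2 and 0.11 for ATO 1 over ATO 2. For the 4 ratios of an ATO over a PBS sarcoma the medians were -0.35 (ATO 1 over PBS 1), -0.22 (ATO 1 over PBS 2), -0.43 (ATO 2 over PBS 1) and -0.32 (ATO 2 over PBS 2), with 58, 61, 64 and 64 of 76 genes lower in the ATO sarcoma. Within the groups 57 of 76 genes were lower in ATO 2 than in ATO 1 and 47 of 76 lower in PBS 2 than in PBS 1, so the count for the ATO sarcomas was close to the smallest of the counts between groups, while its median ratio was smaller in size. The median over all genes tested lay between -0.04 and 0.02 in these 6 ratios. Single genes spread more widely between the PBS sarcomas (SD of the log2 ratio over the members 0.38) than between the ATO sarcomas (0.17). The widest gap within a group was that of Rpl34, a large subunit protein, at 248 CPM in PBS 1 and 109.5 CPM in PBS 2. On the FPKM scale the levels of the 76 genes ran in much the same order in every sarcoma, with Pearson's r of log2 FPKM between 0.93 and 0.99 in the 6 pairs of samples, a description across genes that share their exon lengths.

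**Figure D3:**
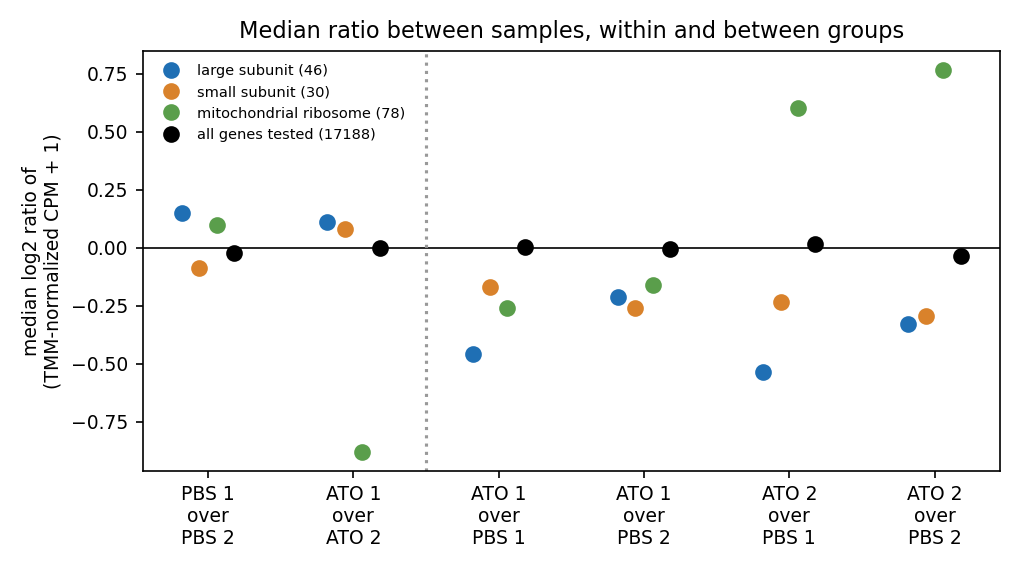
Median log2 ratio of TMM-normalized CPM (+ 1) between each pair of sarcomas for large subunit, small subunit and mitochondrial ribosomal protein genes and for all genes tested, with pairs within a group left of the dotted line and ATO over PBS pairs right of it. Both cytosolic subunits lie below 0 in all 4 ATO over PBS pairs, while the mitochondrial ribosome lies below 0 in the pairs with ATO 1 and above it in those with ATO 2.

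Per exon length, by FPKM averaged over the 4 sarcomas, the most abundant members were 2 stalk proteins, and the order was not the same in every sarcoma. Rplp1 reached FPKM values of 1027 in PBS 1, 767 in PBS 2, 651 in ATO 1 and 594 in ATO 2, and Rplp0 1128 in PBS 1, 719 in PBS 2, 549 in ATO 1 and 338 in ATO 2, so the levels of the 2 genes overlapped. The next were Rps2, a protein of the mRNA entry channel (FPKM 868, 525, 389 and 293 in the same order), Rps15, near the decoding center (518, 548, 431 and 402), and Rpl8, at the core of the large subunit (644, 568, 376 and 242), and the ranges of these 3 genes overlapped too. The lowest were Rpl21 (FPKM 40.2, 32.6, 25.4 and 19.2), Rps10 (41.8, 33.6, 24.6 and 18.1) and Rps15a (33.9, 35.05, 29.4 and 22.1). The deposited exon size of a gene merges the exons of all its transcripts and equals that of GENCODE M21 for all 76 genes. It ran from 383 to 6270 bases and for Rps15a, at 6270 bases, is far longer than the 390 coding bases, so FPKM understates such genes. Levels are therefore given in CPM from here on except where FPKM is named. CPM compare one gene across sarcomas and not one gene with another.

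Rpl5 and Rpl11, which carry the 5S rRNA into the large subunit and bind Mdm2 when free of the ribosome, were lower in both ATO sarcomas. Rpl5 (chr5:107900502-107909005, GRCm38) had 760.4 CPM in PBS 1, 730.2 in PBS 2, 409 in ATO 1 and 374 in ATO 2, or 745 ± 21.3 CPM in the PBS and 392 ± 25.2 CPM in the ATO sarcomas (SD, n = 2 each). The groups were well apart and the samples within each group close. The fitted log2 change was -0.93 (SE 0.50, 95% interval -2.24 to 0.38, adjusted p from edgeR 0.656), the lowest of all members. Rpl11 (chr4:136028265-136053428) had 349 CPM in PBS 1, 276 in PBS 2, 239 in ATO 1 and 261 in ATO 2, with a gap between the groups smaller than the difference between the PBS sarcomas, and a log2 fold change of -0.32. Exons of Rpl5 share 953 bases with exons of Fam69a on the opposite strand. Fam69a had 474, 507, 392 and 299 counts in PBS 1, PBS 2, ATO 1 and ATO 2, against 14504, 14539, 7477 and 4680 for Rpl5. How reads from the shared bases were assigned is not known, since the sources used here do not say whether the counting used strand. Of 5 other members chosen for a known tie to Mdm2 or p53, a list that is not complete, 4 had both ATO values under both PBS values. The count over all members was 44 of 76, and the share of all genes tested was 20.2%. Rps7 had 388, 290.2, 233 and 223 CPM in PBS 1, PBS 2, ATO 1 and ATO 2, Rpl26, which also binds the p53 mRNA, 339.8, 377, 234 and 301, Rps3 473, 519.6, 399 and 393 and Rpl23 336, 314, 275 and 284. Rps27 had 132, 83.4, 115 and 109 CPM, and its ATO values lay between those of PBS 1 and PBS 2. Their log2 fold changes were -0.57, -0.42, -0.32, -0.22 and 0.054.

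The stalk recruits translation factors to the ribosome, with Rplp0 as its base and pairs of Rplp1 and Rplp2 as its arms, and its 3 genes had unlike values. Rplp0 (chr5:115559467-115563727) had 1714 CPM in PBS 1, 1076 in PBS 2, 904 in ATO 1 and 684 in ATO 2, or 1395 ± 451 CPM in the PBS and 794 ± 155 CPM in the ATO sarcomas (SD, n = 2 each). The PBS sarcomas differed from each other by more than the gap between PBS 2 and ATO 1, and the log2 fold change was -0.81 (SE 0.63, 95% interval -2.47 to 0.84, adjusted p from edgeR 0.746). Rplp1 had 469 CPM in PBS 1, 346 in PBS 2, 323 in ATO 1 and 361 in ATO 2, so the groups overlapped, with a log2 fold change of -0.25. Rplp2 (chr7:141447370-141451585) had 128 CPM in PBS 1, 173 in PBS 2, 211 in ATO 1 and 212 in ATO 2, or 150.3 ± 31.5 CPM in the PBS and 211 ± 1.24 CPM in the ATO sarcomas (SD, n = 2 each). It was the highest of the 76 genes in the order of fold change, at 0.49 (SE 0.42, 95% interval -0.61 to 1.59, adjusted p from edgeR 0.774). By FPKM the Rplp2 groups overlapped, at 67.5, 92.3, 102 and 84.1 in PBS 1, PBS 2, ATO 1 and ATO 2. Unequal change within the stalk was not tested.

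**Figure D4:**
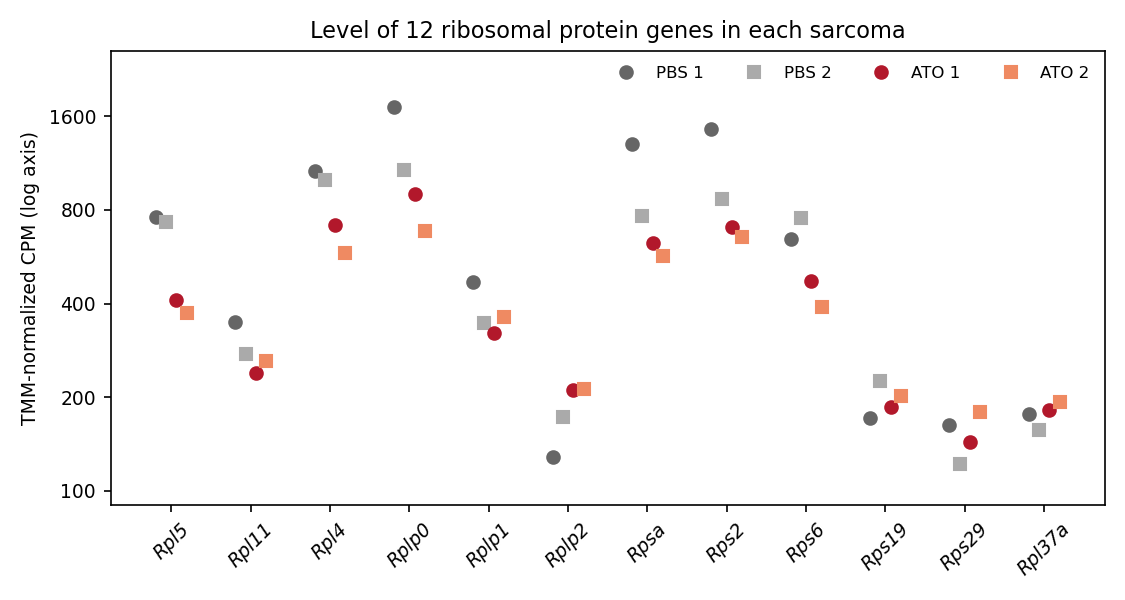
TMM-normalized CPM (log axis) of 12 ribosomal protein genes in each of the 4 sarcomas (1 point a sample). Rpl5, Rpl4, Rplp0, Rpsa, Rps2, Rps6 and Rpl11 have both ATO points under both PBS points, Rplp2 and Rpl37a have both above, and the points of Rplp1, Rps19 and Rps29 are interleaved.

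Among the members with the lowest fold changes, 3 more belonged to the large and 3 to the small subunit. Rpsa (chr9:120127689-120132369), which sits at the mRNA exit and is also known as the laminin receptor, had 1299.6 CPM in PBS 1, 765 in PBS 2, 628 in ATO 1 and 569.9 in ATO 2, and its log2 fold change was -0.79 (adjusted p from edgeR 0.739, with an SE of 0.59). Rpl12 (chr2:32961559-32965345), a protein at the foot of the stalk, had 572 CPM in PBS 1, 333 in PBS 2, 305 in ATO 1 and 221 in ATO 2 and a log2 fold change of -0.78 (adjusted p from edgeR 0.715, with an SE of 0.54). In both genes PBS 2 was nearer to ATO 1 than to PBS 1. Rpl6 (chr5:121204481-121209241), a large subunit protein, had 776 CPM in PBS 1, 650.2 in PBS 2, 446 in ATO 1 and 383 in ATO 2 and a log2 fold change of -0.78 (adjusted p from edgeR 0.701, with an SE of 0.51). Rps2 had 1454 CPM in PBS 1, 867 in PBS 2, 707 in ATO 1 and 653 in ATO 2, with a log2 fold change of -0.77. Rpl8 had 801 CPM in PBS 1, 696 in PBS 2, 508 in ATO 1 and 400.1 in ATO 2 and -0.72. Rps6, the substrate of the S6 kinases downstream of mTORC1, had 645 CPM in PBS 1, 755 in PBS 2, 472 in ATO 1 and 389.7 in ATO 2 and -0.70. In Rpl6, Rpl8 and Rps6 the 2 PBS sarcomas were nearer to each other than either was to an ATO sarcoma.

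Of the 5 genes for proteins that line the peptide tunnel of the large subunit or its exit, 3 had both ATO values under both PBS values. Over all members the count was 44 of 76, and over all genes tested the share was 20.2%. Rpl4, whose loop reaches into the peptide tunnel, had 1067 CPM in PBS 1, 996 in PBS 2, 718 in ATO 1 and 580.2 in ATO 2, with the groups well apart, and a log2 fold change of -0.67. Rpl23a, at the mouth of the tunnel, had 505, 350.4, 288 and 273 CPM in PBS 1, PBS 2, ATO 1 and ATO 2, and Rpl35, beside it, 309, 231, 222 and 184 CPM. Both were lower in both ATO sarcomas, but both overlap a gene on the opposite strand. Of the 847 exonic bases of Rpl23a, 506 overlap Tlcd1 (303, 236, 422 and 876 counts in the same order). Of the 1241 of Rpl35, 821 overlap Wdr38 (13, 6, 9 and 10 counts). Rpl17 had 406, 243, 287 and 274 CPM and Rpl39 85.1, 97.0, 87.1 and 97.8 CPM, and in both the groups overlapped. Their log2 fold changes, in the order named, were -0.67, -0.61, -0.41, -0.21 and 0.022.

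Of the 7 proteins around the decoding center and the mRNA channel, all had a negative log2 fold change, against 67 of the 76 members. Both ATO values lay under both PBS values in 4 of 7, against 44 of 76 members and 20.2% of all genes tested. Besides Rps2 and Rps3 the 4 were Rps26, which touches the mRNA upstream of the start codon (299.7, 249, 239 and 219 CPM in PBS 1, PBS 2, ATO 1 and ATO 2, log2 fold change -0.26), and Rps28 (116, 104, 86.3 and 81.6 CPM, -0.38). Rps23, a core protein of the decoding center, had 465, 304, 304 and 279.1 CPM, where PBS 2 and ATO 1 were level. Rps15 had 299, 312, 269.6 and 309 CPM, all within a narrow range.

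Germline loss of 1 allele of any of several ribosomal protein genes causes Diamond-Blackfan anemia in humans, and p53 activation is part of the disease. The 9 genes of this kind listed here had -0.32 as the median log2 fold change, as did the 76 members. All 9 had negative values, against 67 of the 76 members. Lower levels in both ATO sarcomas were found in 6 of 9, against 44 of 76 members and 20.2% of all genes tested. Rps19, the gene most often mutated in that disease, had 171 CPM in PBS 1, 226 in PBS 2, 186 in ATO 1 and 202 in ATO 2, with the ATO values between the PBS values and a log2 fold change of -0.033 (95% interval -1.14 to 1.07). Rps24 had 444, 817, 443 and 436 CPM in PBS 1, PBS 2, ATO 1 and ATO 2, where PBS 2 alone was high and the other 3 sarcomas were level, and its log2 fold change of -0.52 was -0.020 without that sarcoma. Rpl35a had 221, 179, 179 and 180.5 CPM, with only PBS 1 above the rest. Rps10 had 88.3, 70.2, 56.6 and 51.1 CPM and a log2 fold change of -0.56, but the rows named as its pseudogenes held as many counts as Rps10 itself (101% of them), so its reads cannot be assigned with certainty. For Rpl21 that figure was 36.6%, for Rpl14 27.3% and for Rps7 24.9%, while over all members the 320 pseudogene rows, named after 63 of the genes, held 2.46% to 2.67% of the member counts of a sarcoma.

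Of the 9 genes with a positive log2 fold change, 7 were among the 25 that encode the shortest proteins. After Rplp2 the highest were Rps29, a zinc-binding protein of 56 residues, with 163 CPM in PBS 1, 122 in PBS 2, 143 in ATO 1 and 179 in ATO 2, and a log2 fold change of 0.18 (adjusted p from edgeR 0.929, with an SE of 0.42), and Rpl37a, of 92 residues, with 177 CPM in PBS 1, 157 in PBS 2, 183 in ATO 1 and 193 in ATO 2 and 0.17 (adjusted p from edgeR 0.929, with an SE of 0.40). The gap between PBS 1 and ATO 1 in Rpl37a was smaller than that between the PBS sarcomas. Under scaling to library totals alone Rps29, Rpl37a, Rps27 and Rpl36a turned negative, and Rplp2 was the only member of the 76 that remained above 0. Rpl41, the smallest ribosomal protein at 25 residues, had 494, 405, 425 and 421 CPM in PBS 1, PBS 2, ATO 1 and ATO 2. The 4 X-linked members had differing patterns. Rps4x stood at 490.1, 570.2, 619 and 478 CPM, Rpl10 at 519, 608, 566 and 498, Rpl36a at 97.1, 103, 113 and 94.2 and Rpl39 as given above. Rpl39 was higher in ATO 2 than in ATO 1 and the other 3 were lower in it. None of the 4 was separated between the groups, and their median log2 fold change was 0.04, while all 4 values were negative when library totals alone set the scale.

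A few further members with known roles of their own differed in where they stood. Rpl13a, part of the complex that silences inflammatory mRNAs in myeloid cells, had 198, 173, 135 and 121 CPM in PBS 1, PBS 2, ATO 1 and ATO 2 and a log2 fold change of -0.53. Of its 2114 exonic bases, 621 are shared with Gm45713 (0, 0, 2 and 0 counts in the same order) on the same strand. Rpl22, an RNA-binding protein dispensable for most translation, had 190.0, 204, 128 and 140.2 CPM and -0.56, and Rpl3, at the peptidyl transferase center, 747, 525, 457 and 419 CPM and -0.54. Rpl10a had 431, 324, 313 and 225 CPM and -0.49. All 4 were lower in both ATO sarcomas, though ATO 1 reached close to PBS 2 in Rpl10a. Rps27a, made as a fusion with ubiquitin, had 317, 343, 286 and 246 CPM and -0.31. Rps25, needed for initiation on some viral RNAs, had 269, 293, 270.1 and 235 CPM and Rpl38, known for its part in the patterning of the skeleton, 82.1, 102, 85.2 and 78.4 CPM, and in these 2 genes the groups overlapped.

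The fitted change went with the length of the encoded protein. Over the 76 genes Spearman's rho between the log2 fold change and the coding length was -0.55 (Pearson's r with log2 length -0.55), and it was -0.57 within the 46 large and -0.48 within the 30 small subunit genes. These are descriptions across genes of the same 4 libraries, which are not independent. The 25 shortest proteins, of 25 to 133 residues, had a median log2 change of -0.16, with 9 of 25 lower in both ATO sarcomas. The 25 of middle length, of 135 to 184 residues, had -0.31 and 15 of 25, and the 26 longest, of 188 to 419 residues, had -0.50 and 20 of 26. These counts stood beside 44 of 76 over all members and 20.2% of all genes tested. In the 4 ATO over PBS pairs rho was between -0.50 and -0.36. Between samples of one group it was 0.15 for PBS 1 over PBS 2 and 0.36 for ATO 1 over ATO 2, so length also ordered the ratios of the ATO sarcomas to each other. Without any one sarcoma rho stayed between -0.57 and -0.45. Over 1108 genes of like coding length and at least the lowest FPKM of a member, the members included, it was -0.05. Over all 14370 genes with a coding length, the members again included, rho was -0.12, and over the 78 mitochondrial ribosomal protein genes -0.24. For the level, rho was -0.45 for mean CPM, which itself grows with length, and -0.17 for mean FPKM. Within the large subunit rho for mean CPM was -0.43, weaker than for length, and within the small subunit it was -0.49, about the same as for length.

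**Figure D5:**
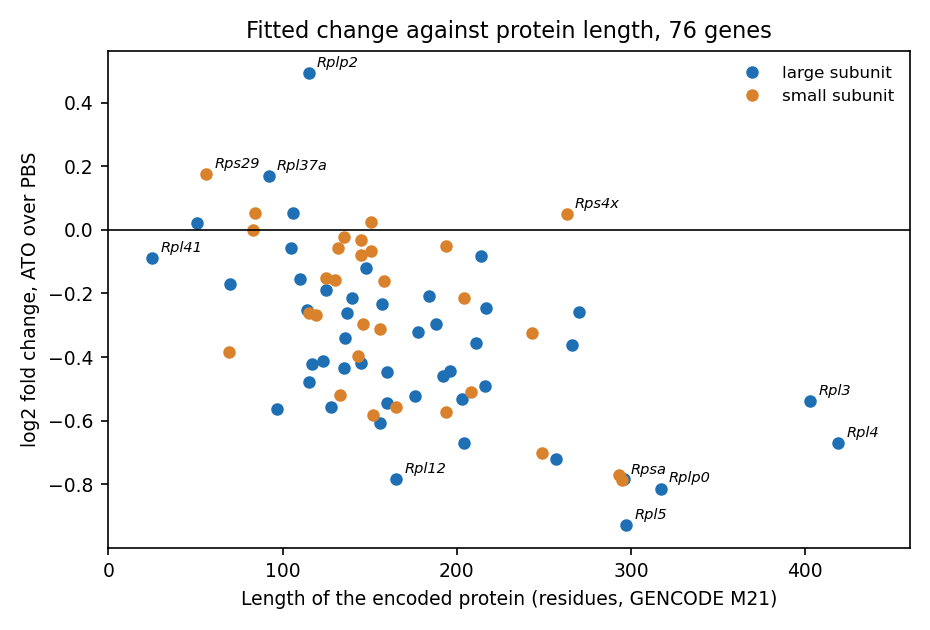
Log2 fold change of ATO over PBS (edgeR, 2 sarcomas a group) against the length of the encoded protein in residues (GENCODE M21) for the 76 genes, 1 point a gene, coloured by subunit. The points tend to fall with length, from a median of -0.16 in the 25 shortest proteins to -0.50 in the 26 longest, with scatter at each length. Rpl22, among the shortest, lies at -0.56, and Rpl5 (-0.93) and Rplp0 (-0.81) are the lowest. Rplp2 is the highest, while Rps4x lies above and Rpl12 beneath the genes of like length.

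Other proteins of the mature ribosome have symbols outside the pattern used. Rack1, a scaffold on the head of the small subunit, had 821 CPM in PBS 1, 730.0 in PBS 2, 433 in ATO 1 and 403 in ATO 2 and a log2 fold change of -0.89 (adjusted p from edgeR 0.669, with an SE of 0.51). Fau, made as a fusion with a ubiquitin-like protein, had 211, 218, 188 and 213 CPM in PBS 1, PBS 2, ATO 1 and ATO 2, and Rps3a1 had 1048, 497, 716 and 609.9 CPM, and in both the groups overlapped. Of the paralogs, Rpl3l, the form of Rpl3 in striated muscle, had 2 and 13 counts in PBS 1 and PBS 2 and 1129 and 213 in ATO 1 and ATO 2. Its FPKM was 0.0272% and 0.240% of that of Rpl3 in the PBS sarcomas and 26.2% and 7.85% in the ATO sarcomas, in the order in which the skeletal muscle markers stood. Its log2 fold change was 6.67 (adjusted p from edgeR 0.570, with an SE of 1.26), and DESeq2 called it. Rpl22l1 stood at 25.5%, 16.3%, 46.6% and 35.6% of the FPKM of Rpl22 in PBS 1, PBS 2, ATO 1 and ATO 2. In CPM Rpl22 was lower and Rpl22l1 higher in both ATO sarcomas (33.1, 22.8, 40.7 and 34.1 CPM), with PBS 1 and ATO 2 close for Rpl22l1. Its FPKM, at 18.2, 12.7, 20.6 and 14.1, overlapped between the groups. Rps27l, a p53 target, had 39.1, 36.6, 45.5 and 70.5 CPM, with the groups apart chiefly through ATO 2. Rpl39l stood at 102% of the FPKM of Rpl39 in PBS 1 and 0.988%, 17.2% and 11.3% in the others, and Rpl10l had no count in any sarcoma.

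Genes that make or use ribosomes had mostly negative values in the same comparison. Of 45 ribosome biogenesis genes edgeR called 0, with 2 at an unadjusted p under 0.05 and a smallest adjusted p of 0.570. Their median log2 fold change was -0.51, with 41 of 45 negative, against 50.8% of all genes tested. Lower levels in both ATO sarcomas were found in 26 of 45, against 20.2% of all genes tested. The 5 with the largest changes were Gar1 (-1.36), Nop56 (-1.19) and Nhp2 (-1.14), all of small nucleolar RNPs, Eif6 (-1.001), which keeps the subunits apart, and Gnl3 (-0.98), a nucleolar GTPase. Nop56 had 133 CPM in PBS 1, 136 in PBS 2, 77.3 in ATO 1 and 40.5 in ATO 2 and Eif6 80.6 CPM in PBS 1, 93.8 in PBS 2, 42.2 in ATO 1 and 44.96 in ATO 2, and in both genes the groups were well apart. Gar1 had 43.4, 13.7, 13.8 and 8.39 CPM in the same order and was high in PBS 1 alone, and Gnl3 had 72.3, 165, 79.1 and 41.4 CPM and was high in PBS 2 alone, so in both of these the groups overlapped. Of 16 translation factors and related genes with TOP mRNAs edgeR called 0, the median was -0.47, and 14 of 16 were negative. The largest changes were in Naca (1.27), a nascent chain chaperone with a muscle isoform, Hnrnpa1 (-1.19), Npm1 (-1.05), Pabpc1 (-1.01) and Eif3h (-0.75). Pabpc1, the poly(A)-binding protein, had 1135 CPM in PBS 1, 1143 in PBS 2, 605 in ATO 1 and 528 in ATO 2. Naca had 194 CPM in PBS 1, 189 in PBS 2, 687 in ATO 1 and 237 in ATO 2 and was high in ATO 1 alone. Among the 16 genes of the mTORC1 pathway and of TOP control edgeR called 0 and the median was -0.01, with the largest changes in Eif4ebp2 (1.04), Mlst8 (-0.58), Eif4ebp1 (0.52), Eif4e (-0.49) and Rptor (-0.36). Eif4ebp2, a repressor of cap-dependent initiation, had 128 CPM in PBS 1, 116 in PBS 2, 248 in ATO 1 and 256 in ATO 2, and Larp1 had 182, 161, 192 and 135 CPM, with the ATO values on both sides of the PBS values. Of the 8 transcription factors tied to ribosomal protein genes edgeR called 0 and the median was -0.21. Their values ran from -1.28 to 0.17, with 6 of 8 negative and 1 of 8, Myc, lower in both ATO sarcomas. Myc, which drives ribosome production, had 58.1 CPM in PBS 1, 101 in PBS 2, 50.6 in ATO 1 and 18.8 in ATO 2 and a log2 fold change of -1.20 (SE 0.64), while Yy1 (-0.012) and Gabpa (0.17) were near level.

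The genes of the mitochondrial ribosome had mostly positive fitted values, which rested on ATO 2. Of its 78 genes edgeR called 0, with 1 at an unadjusted p under 0.05, and 66 of 78 had a positive log2 fold change, with a median of 0.35. Scaled to library totals alone the median was 0.04 with 42 of 78 positive, and without ATO 2, the sarcoma rich in mitochondrial counts, it was -0.20 with 20 of 78 positive. In ATO 1 over ATO 2 the mitochondrial ribosome had a median log2 ratio of -0.88, with 2 of 78 genes higher in ATO 1, whereas the cytosolic ribosome had 0.11. The share of the cytosolic ribosome was thus low in both ATO sarcomas, and that of the mitochondrial ribosome was high in ATO 2 only, at 0.296% of the counts against 0.187% to 0.245% in the other 3.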

How the data were processed

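RNA-seq of 4 mouse sarcomas was analysed, in groups set by each sample's treatment label. The authors trimmed the reads with cutadapt 1.9.1, aligned them with HISAT2 2.0.1, counted them per gene with HTSeq, and deposited raw counts and FPKM, per the labels and the study. The deposited FPKM equals the count divided by exonic size and total count to within rounding. The deposited exonic sizes are in bases. Positions in the table differ from those of GENCODE M21 (GRCm38) for most genes, so coordinates were taken from that annotation by identifier. How reads from several loci were counted is not given in the sources used here, which bears on genes with pseudogenes.

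Counts were tested with edgeR 4.0.16 (filterByExpr, TMM, trended dispersion, quasi-likelihood F-test, Benjamini-Hochberg over all 17188 genes, threshold 0.05) in R 4.3.3, after a trial on simulated data. The trial used a smaller spread than the common one of these tumors and larger changes than those fitted for the members. It therefore does not show how well the test finds such changes here. CPM are scaled by TMM factors. Ratios between samples were taken of CPM + 1. Alternatives were DESeq2 1.42.0, limma 3.58.1 on log2(FPKM + 1), log2(FPKM + 0.1) and log2(TPM + 1), other scalings and filters, a replicate block, and each sarcoma left out. Tables and figures were made in Python 3.11.15 with pandas 2.3.3, numpy 2.4.6 and matplotlib 3.10.9. Rows with a blank symbol (2639) held at most 0.171% of the counts. A count of 0 allows up to 3 counts, or 0.165 to 0.197 CPM before TMM scaling, and covers counting error only. The members, lists and named genes were chosen with earlier results of these data known. The genes named were those with a role listed for them, the 5 highest and 5 lowest by fold change, the 5 highest and 3 lowest by FPKM, any past the threshold (0), and the 5 largest changes of each related list. A few genes that these rules would name are not reported here by name, and they remain in the counts and medians. Some other ribosomal protein genes, overlap partners and paralogs are given as values. Replicate numbers were not shown to pair the samples, as the labels give no shared litter or day. Start windows and motif matches came from RefSeq tables.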

Additional observations from a re-analysis of the deposited data

How the results depend on the processing

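The count of 0 members past the threshold held under all 15 alternatives, while over all genes DESeq2 called 754 and edgeR without the filter 541 against 0, and the cause was not tested. The median log2 fold change of the members, -0.32, stayed negative throughout. It was -0.58 with library totals alone, -0.59 with limma on log2(FPKM + 0.1), -0.58 on log2(FPKM + 1) and -0.81 on log2(TPM + 1), scalings that also move the median of all genes to between -0.44 and -0.23, and -0.41 to -0.27 with 1 sarcoma left out. Relative to all genes it lay between -0.56 (without PBS 2) and -0.17 (without ATO 2). The 9 members with a positive value became 1 with library totals and in each limma fit, and 6 to 15 with 1 sarcoma left out (15 without PBS 2). The 2 with both ATO above both PBS became 0 in those 4 fits and 4 to 10 with 1 sarcoma left out, where fewer samples are compared, and the 44 with both below became at most 64 (log2 TPM) and at least 43. The difference in share was -2.72 percentage points on FPKM instead of -1.15 on counts, where genes are weighted by length, and the other scalings give no share of their own. The replicate block, a number that is not shown to pair the tumors (correlation of same-numbered deviations 9.1e-05 over all genes and 0.22 over the members), gave 0 calls and a median of -0.31, and changed no call. Of 660 alternative values of 44 named members, 40 turned sign, in 11 genes, and none passed the threshold. With library totals Rpl36a, Rpl37a, Rpl39, Rps27, Rps29 and Rps4x had -0.20, -0.10, -0.26, -0.21, -0.11 and -0.20, with log2(FPKM + 0.1) -0.23, -0.10, -0.25, -0.18, -0.093 and -0.23, with log2(FPKM + 1) -0.22, -0.10, -0.25, -0.18, -0.093 and -0.23, and with log2(TPM + 1) -0.45, -0.33, -0.48, -0.41, -0.32 and -0.46, in that order. Rpl39 was -0.0053 without the filter. With 1 sarcoma left out the ranges of genes that turned were -0.19 to 0.030 for Rpl10, -0.54 to 0.20 for Rpl17, -0.31 to 0.0026 for Rpl35a, -0.10 to 0.18 for Rpl36a, -0.071 to 0.11 for Rpl39, -0.23 to 0.059 for Rpl41, -0.22 to 0.18 for Rps19, -0.24 to 0.42 for Rps27, -0.024 to 0.40 for Rps29 and -0.17 to 0.23 for Rps4x. With 2 sarcomas a group and a coefficient of variation of 62.5% over all genes tested, the spread between tumors and not depth set the precision.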
